A study of Rattus norvegicus with 12 samples.

Results

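The miR-30 family was followed across 12 small RNA libraries of cultured rat cortical neurons. Its members were 10 mature strands chosen by name, the 5p strands of miR-30a, miR-30b, miR-30c, miR-30d and miR-30e and the 3p strands miR-30a-3p, miR-30d-3p, miR-30e-3p, miR-30c-1-3p and miR-30c-2-3p, out of 685 miRNA names in the tables. The tables list them with a species prefix, as rno-miR-30a-5p, rno-miR-30b-5p, rno-miR-30c-5p and so on, which is left out below. The neurons came from Sprague Dawley rat cortices at embryonic day 17 and were grown at 100000 cells per square centimetre. Lentivirus was added to all groups on day 10 in vitro and lysates were made on day 14, and the groups differed in the short hairpin RNA (shRNA) encoded by the virus. It was non-targeting in shNTC, directed against Stau2, which encodes the double-stranded RNA-binding protein Staufen2, in shStau2, and directed against Pum2, which encodes the RNA-binding protein Pumilio 2, in shPum2. Each group had 4 libraries, called biological replicates and numbered 1 to 4. The design text names shNTC as the reference and shPum2 as a further control for changes brought by an active shRNA. The cells were whole dissociated cortex filtered through strainers, with no sort named in the labels, and the lysates were kept frozen and extracted as a batch.

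A mature miRNA guides Argonaute proteins to mRNAs mainly through its seed, the bases 2 to 8 from its 5′ end, and strands with a shared seed can act on overlapping sets of mRNAs. The miR-30 family is found across vertebrates, is broadly expressed, and is known for repressing mRNAs of autophagy, of cell adhesion and, in brain, of the growth factor Bdnf. Each hairpin precursor yields a 5p and a 3p strand, and the strand that stays in Argonaute is called the guide. In this family the 5p strands are the usual guides.

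The mature sequences are shown here because the shared seed defines the family and because the strands differ little outside it. RefSeq's table of assembly GRCr8 held 6 of the 10 members, and in the lines below, written 5′ to 3′, capitals mark the seed.
miR-30a-5p: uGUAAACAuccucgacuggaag
miR-30c-5p: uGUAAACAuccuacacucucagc
miR-30e-5p: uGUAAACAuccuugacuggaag
miR-30a-3p: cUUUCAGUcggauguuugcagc
miR-30c-1-3p: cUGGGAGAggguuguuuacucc
miR-30c-2-3p: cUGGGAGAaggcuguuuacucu
miR-384-5p: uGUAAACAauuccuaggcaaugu
The 5p strands listed shared the seed GUAAACA. Of the 613 miRNA names in the tables that matched a RefSeq sequence, 4 carried it, and the only one outside the family was miR-384-5p, a brain-enriched miRNA. The 3p strands of both miR-30c hairpins shared the seed UGGGAGA, and miR-30a-3p had the seed UUUCAGU, found in no other matched name. Counted from the 5′ end, miR-30a-5p and miR-30e-5p differed by the single substitution C13U, while miR-30c-1-3p and miR-30c-2-3p differed by G9A, U12C and C22U. A read of miR-30a-5p or miR-30e-5p with a sequencing error at the base that differs could therefore be assigned to the other strand. The miR-30c 3p strands differ at more bases, so a single error would not make them alike. No source used here says how the authors' counting treated mismatched reads.

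Hairpins are shown for the locus on which the results below turn and for the second source of miR-30c-5p, with the mature strands in capitals.
Mir30a: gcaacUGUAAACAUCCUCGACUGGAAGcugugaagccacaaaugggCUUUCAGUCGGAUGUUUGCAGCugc
Mir30c2: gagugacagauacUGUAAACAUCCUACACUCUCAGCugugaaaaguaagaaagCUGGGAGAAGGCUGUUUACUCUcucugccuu
Mir30c1: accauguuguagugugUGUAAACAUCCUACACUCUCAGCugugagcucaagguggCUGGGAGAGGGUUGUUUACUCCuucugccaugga
In GRCr8, Mir30a lies at chr9:33233941-33234011 and Mir30c2 at chr9:33253682-33253765, both on the plus strand, with no gene of the RefSeq table wholly between them. Mir30c2 lies inside Rbx1-ps1 and LOC134480562 of that table, whereas no gene of it encloses Mir30a. Mir30c1 lies at chr5:139634455-139634543 and Mir30e at chr5:139637450-139637541, both on the minus strand and both inside Nfyc, the gene of a subunit of the transcription factor NF-Y. Mir30d and Mir30b neighbour each other on chromosome 7. The mature miR-30c-5p is identical in the hairpins Mir30c1 and Mir30c2, so its count sums both loci, whereas miR-30c-1-3p and miR-30c-2-3p each mark a single hairpin.

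The deposited values were raw counts per small RNA name. Library totals lay between 3836349 and 5415763 counts. Levels are given as CPM, the usual scale of counts relative to the miRNA total of a library, after scaling by trimmed mean of M-values (TMM), and are relative levels, not amounts per cell, so that fewer cells of a type and less of a miRNA per cell cannot be told apart. The floor of 3 counts stood at 0.558 to 0.788 CPM, for counting error only. The labelled cell type was checked against markers: all 8 neuronal miRNAs of the fixed list were present, summing to between 314506 and 381331 CPM in a library. Most of that sum was miR-9a-5p and miR-128-3p, at mean levels of 190379 and 91251 CPM. By comparison miR-124-3p averaged 5099 CPM and miR-153-3p 138 CPM. Markers of other cells were also present, with sums of 2511 to 7327 CPM over 4 astrocyte miRNAs, 219 to 406 CPM over 3 oligodendrocyte miRNAs and 558 to 1067 CPM over 6 miRNAs of vessels or mesenchyme. Sums were 129 to 384 CPM over 4 tested miRNAs of blood or microglia and 1914 to 4189 CPM over 5 of choroid or ciliated cells.

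The family was a moderately abundant part of the miRNAs of these cultures, with group means close to each other. The share of all miRNA counts held by the 10 members was 1.97% ± 0.0864 for shNTC, 1.95% ± 0.106 for shStau2 and 2.04% ± 0.181 for shPum2 (SD, n = 4 each). The 5 guide strands together averaged 18656 CPM (SD 1685) for shNTC, 19316 CPM (SD 1491) for shStau2 and 19380 CPM (SD 2373) for shPum2, with 4 libraries each, and the ranges of the 3 groups overlapped, with lowest and highest libraries at 16720 and 20600 CPM, 17998 and 21096 CPM, and 17226 and 22289 CPM. All 10 members passed the filter on low counts, which kept 628 of 685 miRNA names.

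**Figure D1:**
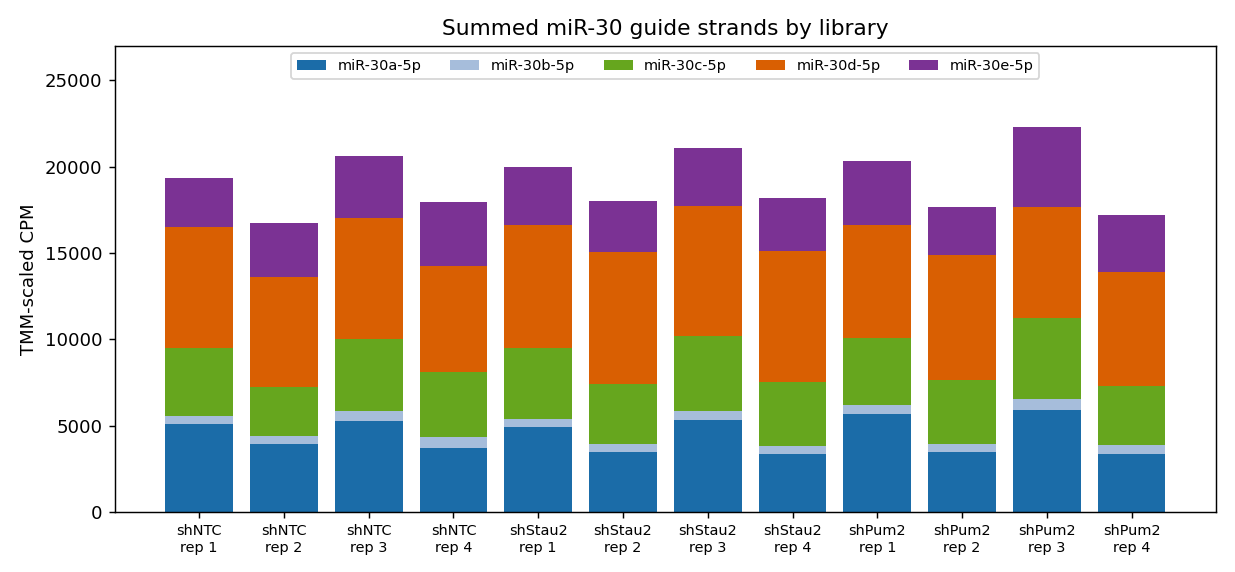
Stacked bars give the TMM-scaled CPM of the 5 guide strands of the miR-30 family in each of the 12 libraries, labelled by group and replicate number (rep). The summed height lies between 16720 and 22289 CPM, and in each group the libraries numbered 1 and 3 are taller than those numbered 2 and 4.

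Among the guide strands miR-30d-5p was highest, at 6614 ± 444 CPM in shNTC, and its lowest library (6132 CPM) lay above the highest library of any other member (5878 CPM, miR-30a-5p). It ranked 19 among the 628 miRNAs by mean level, and miR-30a-5p ranked 30. Next came miR-30a-5p at 4504 ± 793 CPM, miR-30c-5p at 3708 ± 577 CPM and miR-30e-5p at 3318 ± 390 CPM in shNTC (SD, n = 4). Their shNTC ranges were 3723 to 5277 CPM, 2879 to 4207 CPM and 2863 to 3695 CPM in that order. Neighbours in the order overlapped, miR-30a-5p with miR-30c-5p and miR-30c-5p with miR-30e-5p, whereas miR-30a-5p and miR-30e-5p did not. Within a library the ratio of miR-30a-5p to miR-30e-5p counts was 1.01 to 1.78. The least abundant guide was miR-30b-5p at 512 ± 66.6 CPM. Ligation and amplification favour some sequences over others, so these ranks are those of the libraries and need not be those of the cells.

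As a share of the summed guides, miR-30d-5p held 35.5% ± 1.90 for shNTC, 38.9% ± 3.50 for shStau2 and 35.1% ± 5.61 for shPum2. The share of miR-30a-5p was 24.0% ± 2.50, 21.7% ± 3.52 and 23.3% ± 4.39 in the same order, and that of miR-30b-5p 2.75% ± 0.356, 2.56% ± 0.0807 and 2.78% ± 0.209 (SD, n = 4). No test was run on these shares.

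The 3p strands were scarcer than the 5p strand of their own hairpin, although the range of miR-30e-3p overlapped with that of the guide miR-30b-5p (446 to 682 CPM). Over the 12 libraries miR-30e-3p averaged 427 CPM (381 to 469), miR-30a-3p 269 CPM (203 to 352), miR-30c-2-3p 60.0 CPM (36.9 to 84.4), miR-30d-3p 22.0 CPM (15.4 to 29.0) and miR-30c-1-3p 15.4 CPM (12.3 to 24.0). The first 4 of these followed each other without overlap, while the ranges of miR-30d-3p and miR-30c-1-3p overlapped. The scarcest rested on few counts, 57 to 111 per library for miR-30c-1-3p and 78 to 134 for miR-30d-3p. Counting error by itself then amounts to 13.2% of the value at 57 counts and 11.3% at 78, against 0.850% at the lowest count of miR-30a-5p.

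**Figure D2:**
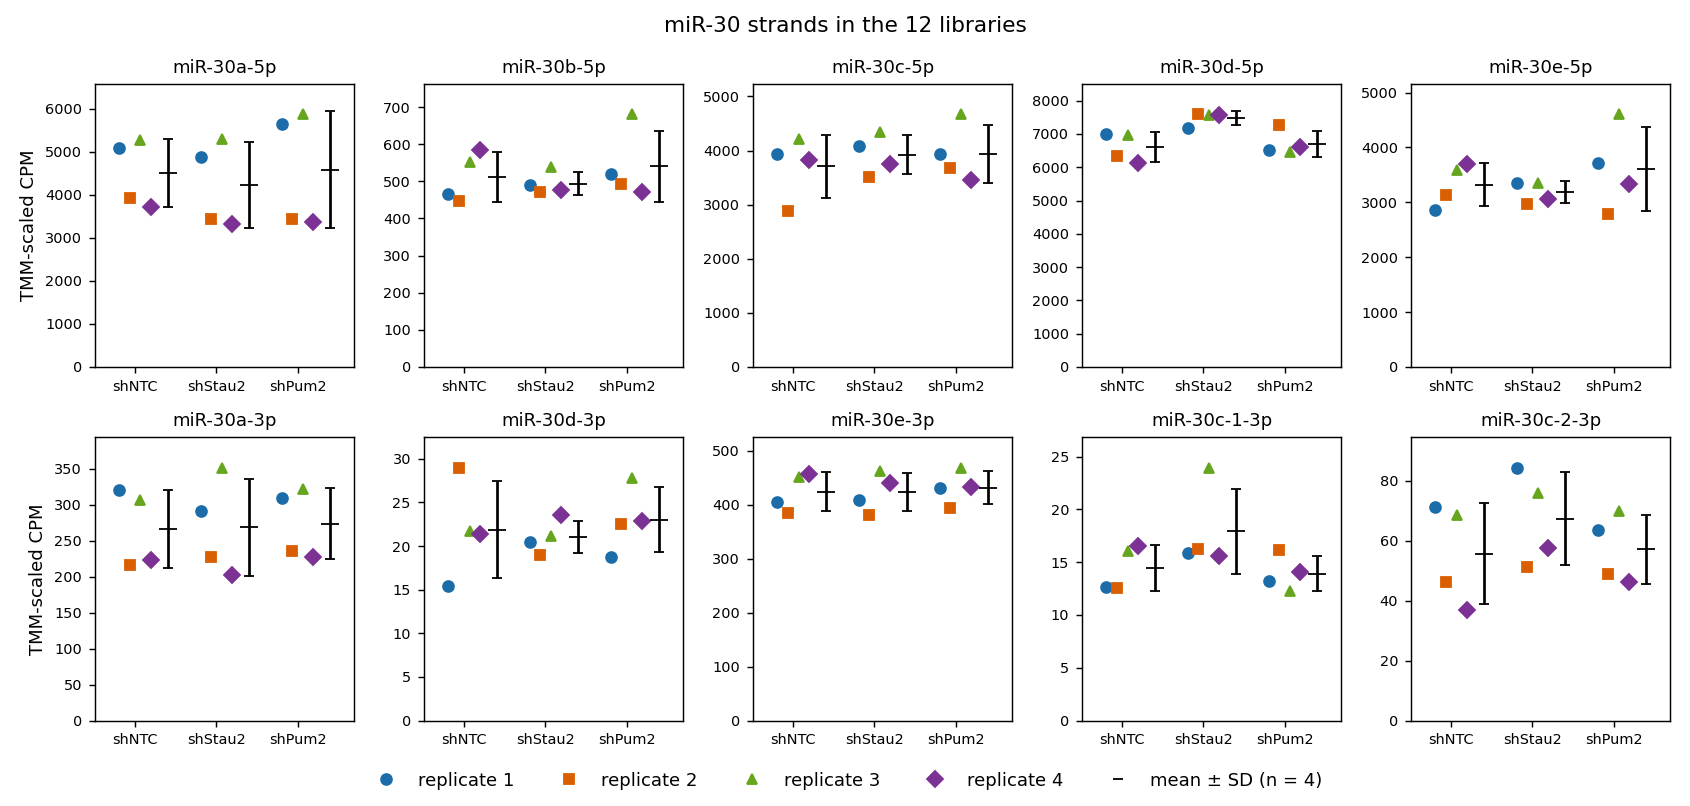
Each panel shows 1 member of the miR-30 family in TMM-scaled CPM on a linear axis from 0, with a point for each library by group, marker shape and colour for the replicate number, and mean ± SD (n = 4) in black. In miR-30a-5p, miR-30a-3p and miR-30c-2-3p replicates 1 and 3 stand above replicates 2 and 4 in every group. In miR-30d-5p the 4 shStau2 libraries (7173 to 7601 CPM) stand above the 4 shNTC libraries (6132 to 7006 CPM). How many of all tested miRNAs separate shStau2 from shNTC, or these replicate numbers, in this way was not counted.

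The balance between the strands of a hairpin differed widely within the family. As a geometric mean over the libraries, miR-30d-5p had 317 counts for each count of miR-30d-3p, whereas the ratio was 29.98 for miR-30b, 16.4 for miR-30a and 7.85 for miR-30e. Against the shared miR-30c-5p the ratio was 251 for miR-30c-1-3p and 65.4 for miR-30c-2-3p. Since miR-30c-5p sums both loci, neither of the last values is the balance of a single hairpin. The ratio of miR-30d exceeded that of 93.3% of the 238 strand pairs in the tables, and that of miR-30e exceeded 67.2%. The strand miR-30b-3p, which is not a member, entered here as the partner of miR-30b-5p.

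Between shStau2 and shNTC, the contrast for depletion of Stau2, no miR-30 strand passed the test. EdgeR's quasi-likelihood test was fitted to all 628 miRNAs with Benjamini-Hochberg adjustment. At an adjusted p of 0.05 it called 0 of 10 members, where 0.318% of all miRNAs were called. An unadjusted p under 0.05 was reached by 1 member and by 71 of the 628 miRNAs. With the replicate number as a block the count of calls was again 0 of 10, beside 6.21% of all miRNAs. In that fit 2 members and 141 of the 628 miRNAs had an unadjusted p under 0.05. DESeq2 called 0 members with or without the block. Of the 10 fold changes 5 were above 0 and 5 below, beside 317 and 311 of the 628 miRNAs. Their median was 0.0028 on the log2 scale against 0.0033 over all miRNAs.

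The member nearest to the threshold among the guides was the most abundant, miR-30d-5p. For shNTC its libraries 1 to 4 stood at 7006, 6341, 6978 and 6132 CPM, for shStau2 at 7173, 7601, 7568 and 7561 CPM, and for shPum2 at 6514, 7278, 6445 and 6596 CPM. All 4 shStau2 libraries were above all 4 shNTC libraries, by little for replicate 1, and replicate 2 of shPum2 reached into the shStau2 range. How many of all tested miRNAs separated these groups in this way was not counted. The separation is therefore not shown to be particular to miR-30d-5p. The log2 fold change of shStau2 against shNTC was 0.18 (SE 0.07, 95% interval 0.03 to 0.33), with an edgeR unadjusted p of 0.0246 and an adjusted p of 0.309, which became 0.123 with the block. The value lay between 0.12 and 0.20 and the edgeR or DESeq2 adjusted p between 0.123 and 0.594 over 17 alternatives, so the call was not made under any of them. Beside this, the sum of the 4 astrocyte markers lay at 2511 to 3897 CPM in shStau2 and at 4372 to 7327 CPM in shNTC without overlap. In shPum2 that sum lay at 3006 to 5304 CPM and overlapped with both. Its part in the value of miR-30d-5p was not tested.

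The other guides showed small differences with intervals on both sides of 0. The log2 fold change was -0.09 (95% interval -0.58 to 0.40) for miR-30a-5p, -0.06 (-0.33 to 0.21) for miR-30e-5p, -0.05 (-0.32 to 0.22) for miR-30b-5p and 0.08 (-0.17 to 0.33) for miR-30c-5p. The wide interval of miR-30a-5p narrowed to between -0.25 and 0.04 with the replicate block.

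Among the 3p strands those of miR-30c had the largest values. The strand miR-30c-2-3p stood in libraries 1 to 4 at 71.1, 46.1, 68.6 and 36.9 CPM in shNTC and at 84.4, 51.3, 76.0 and 57.6 CPM in shStau2. It was higher in shStau2 in 4 of 4 pairs of the same number although the groups overlapped, with a log2 fold change of 0.27 (SE 0.22, edgeR adjusted p = 0.721) that was 0.28 with the block (SE 0.10, unadjusted p = 0.0105, adjusted p = 0.109). The scarce miR-30c-1-3p had 12.6, 12.5, 16.1 and 16.5 CPM in shNTC against 15.9, 16.2, 24.0 and 15.6 CPM with shStau2, and its log2 fold change was 0.32 (SE 0.17, edgeR adjusted p = 0.515). The groups overlapped, replicate 3 of shStau2 stood well above the rest of its group, and without it the value was 0.15. That of miR-30c-2-3p, fitted without the block, was 0.41 without shNTC replicate 1, 0.12 without shNTC replicate 4 and 0.14 without shStau2 replicate 1. The remaining strands were close to level, at 0.01 for miR-30a-3p, -0.06 for miR-30d-3p and -0.004 for miR-30e-3p on the log2 scale.

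**Figure D3:**
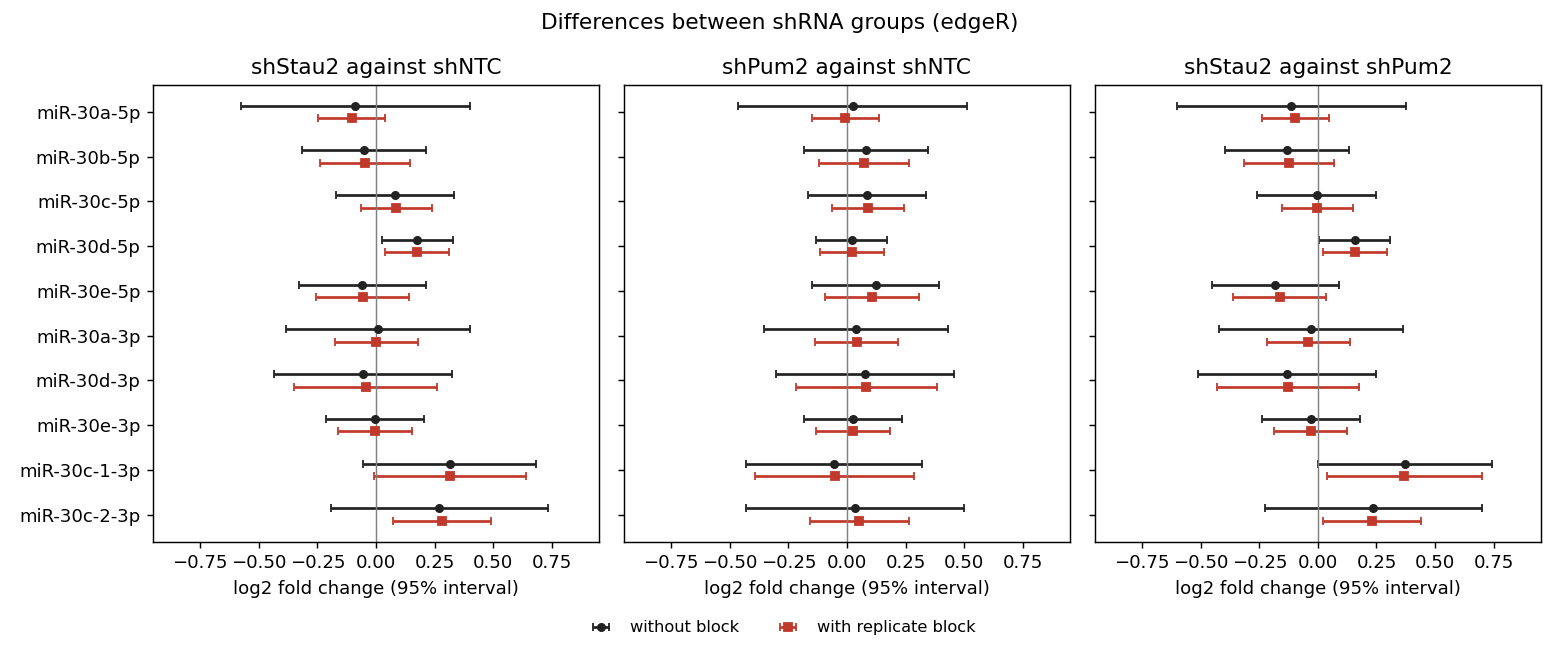
Log2 fold changes of the 10 miR-30 members with their 95% intervals from edgeR are plotted for the 3 comparisons, without a block as black circles and with the replicate number as a block as red squares. Most intervals cross 0, and the exceptions are miR-30d-5p in both comparisons with shStau2 and, with the block, miR-30c-2-3p in both and miR-30c-1-3p against shPum2; the block narrows the intervals of miR-30a-5p, miR-30a-3p and miR-30c-2-3p most.

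Between shPum2 and shNTC, a contrast for background changes of an active shRNA, again 0 of 10 members were called by edgeR. Of the 628 miRNAs 0% were called without the block and 0.159% with it. An unadjusted p under 0.05 was reached by 0 members in either fit, beside 9 miRNAs without the block and 46 with it. DESeq2 called 0 members with or without the block. Of the 10 fold changes 9 were above 0, beside 316 of the 628 miRNAs, with a median of 0.04 against 0.0021 over all miRNAs. Much of this rested on 1 library. Without shPum2 replicate 3 the value was -0.12 for miR-30a-5p, -0.05 for miR-30b-5p, -0.009 for miR-30c-5p and -0.02 for miR-30e-5p, and 0.04 for miR-30d-5p. With all libraries the largest was that of miR-30e-5p at 0.12 (SE 0.13, edgeR adjusted p = 0.982). The libraries of miR-30e-5p numbered 1 to 4 stood at 2863, 3128, 3585 and 3695 CPM in shNTC and at 3719, 2792, 4609 and 3326 CPM in shPum2. Replicate 3 of shPum2 was the highest library of this miRNA and replicate 2 the lowest. For miR-30d-5p the value was 0.02 (95% interval -0.13 to 0.17) and for miR-30a-5p 0.03 (-0.46 to 0.51).

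The comparison of shStau2 with shPum2 set Stau2 depletion against a control that also carried an active shRNA. Of the members 0 of 10 were called by edgeR, beside 0.478% of all miRNAs, and 0 of 10 with the block, beside 3.98%. At an unadjusted p under 0.05 there was 1 member without the block, beside 59 of the 628 miRNAs, and 3 members with it, beside 124. DESeq2 called 0 members in either fit. The value of miR-30d-5p was 0.16 (SE 0.07, 95% interval 0.01 to 0.31, edgeR adjusted p = 0.499), and shStau2 was higher in 4 of 4 pairs. For miR-30c-1-3p it was 0.37 (SE 0.17, adjusted p = 0.518) and for miR-30c-2-3p 0.24 (SE 0.22, adjusted p = 0.716), both also higher in 4 of 4 pairs. Without shStau2 replicate 3 the value of miR-30c-1-3p was 0.19. That of miR-30c-2-3p was 0.11 without shStau2 replicate 1, 0.15 without shPum2 replicate 2 and 0.14 without shPum2 replicate 4. For miR-30a-5p it was -0.11 and for miR-30e-5p -0.18. With the block the edgeR unadjusted p was 0.0267 for miR-30d-5p, 0.0304 for miR-30c-1-3p and 0.0328 for miR-30c-2-3p. In that order the SE was 0.07, 0.16 and 0.10, and the adjusted p was 0.178, 0.191 and 0.202. This comparison shares its shStau2 libraries with the first and its shPum2 libraries with the second, so the 3 sets of values are not independent.

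Whether the balance of the strands differed between groups was tested with limma on the log2 ratio of 5p to 3p counts, which does not depend on the scaling between libraries. Of the 6 miR-30 pairs 0 were called in any comparison, where 0% of the 238 pairs were called in each without the block. With the block the same 0 of 6 stood beside 1.26% of all pairs in shStau2 against shNTC, 0% in shPum2 against shNTC and 3.36% in shStau2 against shPum2. At an unadjusted p under 0.05 there was miR-30b in shStau2 against shPum2, with log2 ratios of 4.75 ± 0.0237 for shStau2, 5.10 ± 0.266 for shPum2 and 4.86 ± 0.109 for shNTC (SD, n = 4; difference of shStau2 from shPum2 -0.35, SE 0.15, limma adjusted p = 0.375). The log2 ratio of miR-30a was 4.08 ± 0.0812 for shNTC, 3.98 ± 0.0776 for shStau2 and 4.03 ± 0.178 for shPum2.

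**Figure D4:**
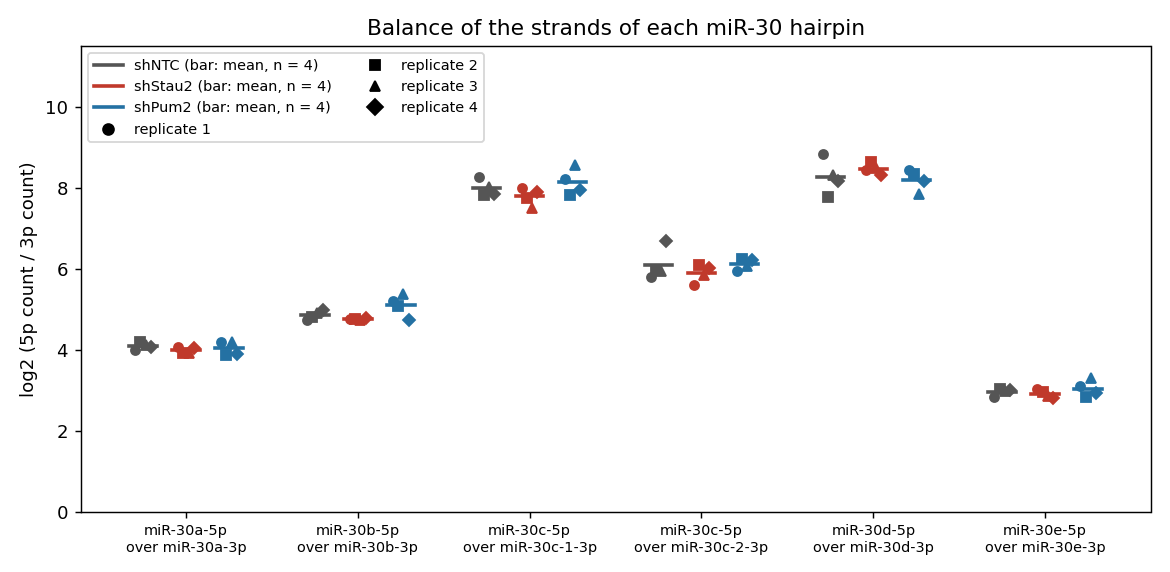
The log2 ratio of 5p to 3p counts is shown for each miR-30 hairpin and library, with colour for the group, marker shape for the replicate number and a bar for the mean (n = 4). The pairs spread from about 2.97 (miR-30e) to 8.32 (miR-30d) as medians over the libraries, and within each pair the 3 groups overlap.

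By replicate number 4 of the 10 members were called, in a test that also called many other miRNAs. An edgeR test of the replicate number, over the 3 groups together, called 4 of 10 members at an adjusted p of 0.05, beside 26.1% of all 628 miRNAs. An unadjusted p under 0.05 was reached by 7 members and by 248 of the 628 miRNAs. The 4 called members were miR-30a-5p (adjusted p = 3.2e-06), miR-30a-3p (0.000136), miR-30c-2-3p (0.000192) and miR-30c-5p (0.00778). The first 3 are the members made only from the Mir30a and Mir30c2 locus, and the fourth is made there and from Mir30c1. Grouping the members by locus was chosen after these values were seen. No source used here says what a replicate number stands for.

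In the order shNTC, shStau2, shPum2, the guide miR-30a-5p stood at 5091, 4888 and 5641 CPM in the libraries numbered 1 and at 5277, 5294 and 5878 CPM in those numbered 3. It stood at 3926, 3447 and 3441 CPM in those numbered 2 and at 3723, 3324 and 3373 CPM in those numbered 4. Every library numbered 1 or 3 was thus above every library numbered 2 or 4, whatever its shRNA. This split of the numbers was read off the values, and how many of all tested miRNAs show it was not counted. The means of the 4 numbers (3 libraries each) spanned 0.66 on the log2 scale and the means of the 3 groups (4 libraries each) 0.10.

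Its partner strand miR-30a-3p moved alike, with 320, 292 and 310 CPM for number 1 and 306, 352 and 322 CPM for number 3. It had 216, 227 and 236 CPM for number 2 and 223, 203 and 227 CPM for number 4. Again no library of the numbers 1 and 3 overlapped with those of 2 and 4. For miR-30c-2-3p the numbers 1 and 3 held 63.6 to 84.4 CPM and 68.6 to 76.0 CPM, and the numbers 2 and 4 held 46.1 to 51.3 CPM and 36.9 to 57.6 CPM, also without overlap. The separation is not shown to be particular to these strands or to their locus.

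The ratio of miR-30c-2-3p to miR-30a-3p counts, strands of neighbouring hairpins, lay between 0.165 and 0.289 over the 12 libraries. The ratio of miR-30c-2-3p to miR-30c-1-3p, which marks the other miR-30c hairpin, was 4.82 to 5.64 for number 1, 3.03 to 3.67 for number 2, 3.17 to 5.71 for number 3 and 2.23 to 3.69 for number 4. The mature miR-30c-5p, which both hairpins produce, had means of 3984, 3357, 4406 and 3674 CPM for the numbers 1 to 4, a smaller span of 0.40 on the log2 scale. The uncalled miR-30e-5p and miR-30d-3p, from other loci, each spanned 0.37. The call of miR-30c-5p was lost with scaling to library totals (edgeR adjusted p = 0.0509).

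The other 6 members were not called. The most abundant, miR-30d-5p, had means of 6898 ± 343, 7073 ± 655, 6997 ± 562 and 6763 ± 729 CPM for the numbers 1 to 4 (SD, n = 3 each; edgeR adjusted p = 0.875). Its number means spanned 0.07 on the log2 scale, less than its group means at 0.18. For miR-30e-5p the number means were 3312, 2961, 3851 and 3363 CPM (edgeR adjusted p = 0.0902), and it was called without shNTC replicate 1 (0.0284) or shNTC replicate 4 (0.0464). For miR-30b-5p the adjusted p was 0.0949, and 0.0171 without shNTC replicate 4. For miR-30e-3p it was 0.113 by edgeR and 0.0472 by the likelihood ratio test of DESeq2. That miR-30a-5p was called and miR-30d-5p was not does not by itself show that they differ. The ratio of miR-30a-5p to miR-30d-5p counts, given as a description, was 0.681 to 0.866 for number 1, 0.454 to 0.619 for number 2, 0.700 to 0.912 for number 3 and 0.440 to 0.607 for number 4.

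**Figure D5:**
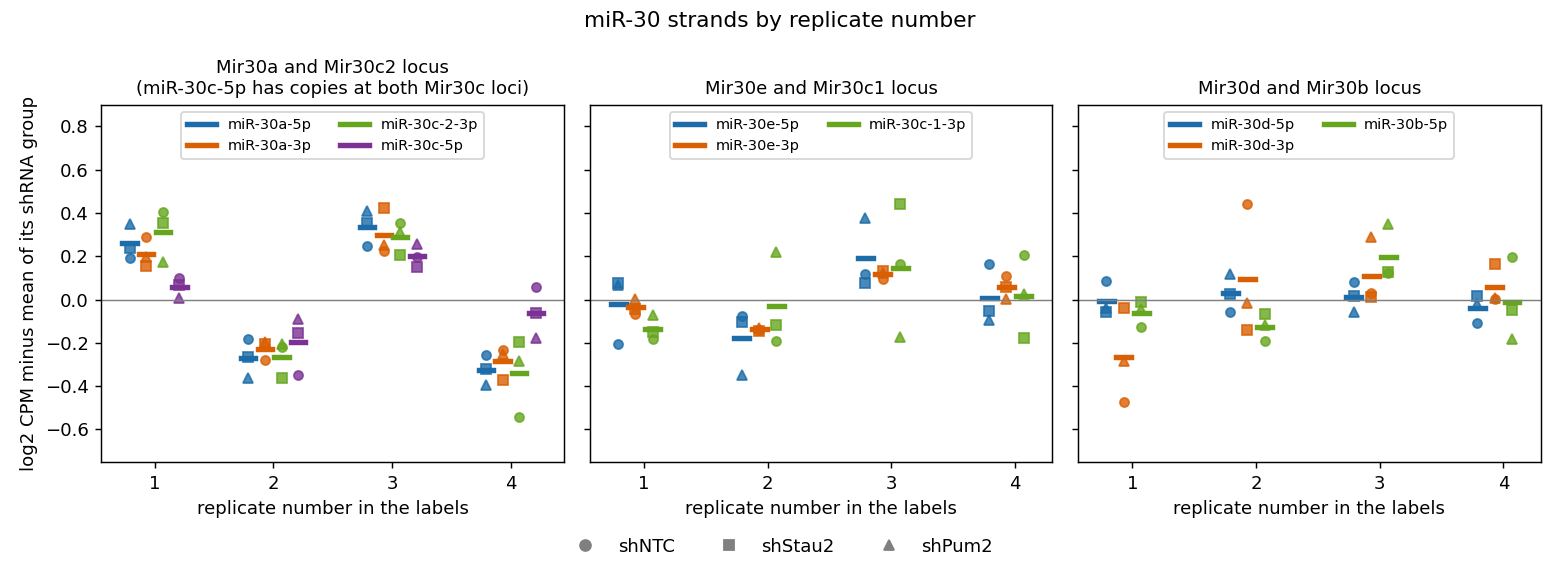
For each miR-30 member, log2 CPM minus the mean of its shRNA group is plotted by replicate number, in a panel for each locus, with marker shape for the group and a bar for the mean of the 3 libraries. Strands of the Mir30a and Mir30c2 locus lie above 0 for numbers 1 and 3 and, but for 1 library of miR-30c-5p numbered 4, below 0 for numbers 2 and 4, while miR-30d-5p stays near 0 in all 4.

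Other measures also went with the replicate number. The number 3 libraries were the deepest, at 5126441 to 5415763 counts. Those numbered 1 held 4202944 to 5048790, those numbered 2 held 3997748 to 4354325 and those numbered 4 held 3836349 to 4449129. In depth number 1 thus overlapped with numbers 2 and 4. Of the markers tested the replicate number called 4 of 6 of vessels or mesenchyme, 4 of 4 of blood or microglia, 3 of 5 of choroid or ciliated cells, 3 of 8 of neurons, 2 of 4 of astrocytes and 0 of 3 of oligodendrocytes. The summed vessel or mesenchyme markers were 558 to 646 CPM for number 1, 707 to 1067 CPM for number 2, 590 to 710 CPM for number 3 and 801 to 1009 CPM for number 4. The summed neuronal markers were 314506 to 333080, 328837 to 335865, 366745 to 381331 and 318097 to 341085 CPM for the numbers 1 to 4. The part of depth or of other cells in the miR-30 values was not tested.

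The seed relative miR-384-5p was as abundant as the middle guides, at 3462 ± 201 CPM for shNTC, 3611 ± 87.0 CPM for shStau2 and 3385 ± 285 CPM for shPum2 (SD, n = 4). It made up 15.7% ± 0.505, 15.8% ± 0.901 and 14.9% ± 0.999 of the summed strands with this seed. It was not called in any comparison of groups, with log2 fold changes of 0.06, -0.03 and 0.09 (edgeR adjusted p = 0.836, 0.982 and 0.674 for shStau2 against shNTC, shPum2 against shNTC and shStau2 against shPum2), or by replicate number (adjusted p = 0.368).

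Among 438 other miRNAs with a mean of at least 10 CPM, those whose log2 CPM followed the summed guides most closely over the 12 libraries were miR-195-5p (Pearson r = 0.865), miR-499-5p (0.858), miR-99a-3p (0.851), the combined name let-7a-1-3p/7c-2-3p (0.848) and miR-9a-3p (0.847). The libraries share replicate numbers, so these values are a description. After removal of group and number means the r was -0.557 for miR-195-5p and 0.665 for miR-9a-3p, with the other 3 between 0.368 and 0.421. Against miR-30a-5p by itself, a comparison added after seeing its values, the closest were miR-195-5p (r = 0.944) and miR-497-5p (0.907), which come from neighbouring hairpins. After removal of group and number means the r was 0.117 for miR-195-5p and 0.634 for miR-497-5p. They stood at mean levels of 493 and 215 CPM and were both called by replicate number (edgeR adjusted p = 2.39e-06 and 2.9e-06).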

How the data were processed

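The authors deposited 1 table of raw counts per library. Per the labels' protocols, libraries were made from total RNA (RNA integrity number 9.5) with unique molecular identifiers. Per the submitters' processing notes, the build was Rnor 6.0. The aligner, the counter and whether molecules or reads were counted are not given in the sources used here, and amplification copies, if counted, would add to the apparent depth.

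The miRNAs (685 names, 120 piRNA names left out) entered edgeR 4.0.16 (R 4.3.3): TMM, filterByExpr, and a robust quasi-likelihood fit by group over all 12 libraries, two-sided, Benjamini-Hochberg adjusted over 628 miRNAs and called at 0.05. Log2 fold changes carry standard errors (SE), and their 95% intervals use the fit's degrees of freedom. Strand ratios were tested with limma 3.58.1 on log2 ratios with a pseudocount of 0.5. Log2 CPM used a prior count of 2. DESeq2 1.42.0, other scalings, no filter, a replicate block and leaving out each library were the alternatives. The tests were checked on simulated data whose changes were larger than the group differences of the members. For the group tests these data held no effect of the replicate number. The check therefore does not give the power for differences of the size seen here.

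Same-numbered libraries of different groups deviated together from their group means (r of 0.36 to 0.571 in 12 pairs, -0.41 to 0.137 in 36 others), so the numbers were taken as pairs from the data, not from the labels. P-values measure the spread between these libraries, whose separate cultures or animals are not described. The members and lists were chosen with earlier results of these data known. The named miRNAs are all members, those sharing a seed, miR-30b-3p, and the 5 with a pattern closest to the summed guides. Also named are miR-497-5p, after its values were seen, and some of the neuronal markers, for their levels. The strand miR-384-3p was not described. RefSeq sequences are of GRCr8, so coordinates are those of that build and not of the authors' alignment.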

Additional observations from a re-analysis of the deposited data

Results flagged for a closer look

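In groups of 4 libraries, a value was marked where its gap to the nearest other exceeded 0.829 of the group's range, a limit that chance passes in about 1 of 20 groups; 2 of 51 groups of values were marked. In shStau2, miR-30d-5p had its lowest library, replicate 1, at 7173 CPM, with the next at 7561 CPM. In shStau2, miR-30c-1-3p had its highest library, replicate 3, at 24.0 CPM, with the next at 16.2 CPM.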

How the results depend on the processing

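No miR-30 member was called between groups under any of the 510 alternative values computed for 30 differences (smallest adjusted p = 0.109), nor any strand ratio under 288 alternatives for 18 (smallest 0.201). Signs turned in 48 and 12 of these, for differences of up to 0.122 and 0.141 in size on the log2 scale in the main fits. The replicate block changed no member's call: with the replicate block 39, 1 and 25 of 628 miRNAs were called in shStau2 against shNTC, shPum2 against shNTC and shStau2 against shPum2, in place of 2, 0 and 3, and 3 and 8 strand pairs in place of 0 in the first and last. DESeq2 called 18 and 7 miRNAs in the first and last, and the minimum of 50 counts gave 1 strand pair in the first. Leaving out a library gave 1 to 3 miRNAs in the first (1 without shStau2 replicate 3) and 0 to 4 in the last (0 when replicate 1 or 3 of shNTC, 2, 3 or 4 of shStau2, or 1, 3 or 4 of shPum2 was missing). For strand pairs it gave 0 to 2 and 0 to 1, the higher values without shPum2 replicate 2. The count by replicate number was 132 to 195. Other turned signs were miR-30a-3p at -0.054 with library totals (shStau2 against shNTC) and miR-30a-5p at -0.0069 with the block (shPum2 against shNTC).

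Log2 ranges with a library left out, where the sign turned, were as follows. In shStau2 against shNTC they were -0.21 to 0.0084 for miR-30a-5p, -0.11 to 0.016 for miR-30b-5p, -0.025 to 0.14 for miR-30c-5p, -0.14 to 0.12 for miR-30a-3p, -0.20 to 0.11 for miR-30d-3p and -0.051 to 0.040 for miR-30e-3p. In shPum2 against shNTC the guides gave -0.12 to 0.16 for miR-30a-5p, -0.051 to 0.15 for miR-30b-5p, -0.0085 to 0.15 for miR-30c-5p, -0.015 to 0.050 for miR-30d-5p and -0.018 to 0.24 for miR-30e-5p. The 3p strands gave -0.052 to 0.14 for miR-30a-3p, -0.061 to 0.26 for miR-30d-3p, -0.018 to 0.086 for miR-30e-3p, -0.12 to 0.011 for miR-30c-1-3p and -0.12 to 0.18 for miR-30c-2-3p. The strand ratios gave -0.10 to 0.0053 for miR-30a, -0.0025 to 0.24 for miR-30c-1, -0.080 to 0.22 for miR-30c-2, -0.24 to 0.11 for miR-30d and -0.0046 to 0.15 for miR-30e. In shStau2 against shPum2 they were -0.25 to 0.029 for miR-30a-5p, -0.063 to 0.087 for miR-30c-5p, -0.19 to 0.081 for miR-30a-3p, -0.095 to 0.015 for miR-30e-3p and -0.11 to 0.0018 for the strand ratio of miR-30a. The cause of these changes was not tested.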
